A study of Mus musculus with 4 samples.

Results

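Solute carriers are membrane proteins that move ions, amino acids, sugars, metals, vitamins and other small molecules across cell membranes and the membranes of organelles. The lens tissue itself holds no blood vessels, and its fiber cells lose their organelles as they mature. Its cells therefore draw nutrients, osmolytes and antioxidant precursors from the surrounding fluids through carriers, and ion carriers take part in volume and calcium control, on which transparency depends. CELF1 is an RNA-binding protein that acts on the stability, splicing and translation of its target RNAs.

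The carriers described here were chosen by measured values. A probe was taken if its gene symbol read Slc, a number and then a or o, and if its detection p-value, which ranks its intensity against negative control beads, was under 0.01 on both Control arrays. Mitochondrial carriers of family Slc25 and 8 carriers of glucose, lactate, cystine, large neutral amino acids and iron (Slc2a1, Slc2a3, Slc16a1, Slc16a3, Slc7a11, Slc7a5, Slc3a2 and Slc40a1) were left out, Slc3a2 being a subunit of such carriers. This gave 61 genes on 75 probes, of 264 genes with such symbols after the exclusions and 11516 genes tested in all. The pattern takes no symbol with another letter after the number, such as those of most nucleotide sugar carriers of family Slc35. The array also holds 15 Slco genes, the organic anion transporting polypeptides, and 0 of them met the rule. Among the 61, Slc4a1ap and Slc9a3r2 encode proteins that bind carriers and are no carriers themselves, and they were kept because their symbols fit the rule.

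The study compared lenses of Celf1 cKO mice (n = 2, replicates A and B) with lenses of Control mice (n = 2, replicates A and B) at postnatal day 6, with 1 lens per array. The cKO mice carried a lacZ knock-in allele of Celf1 (Celf1lacZKI) and an allele with exon 5 between loxP sites, and Pax6GFPCre, a Cre line active from the lens placode on. Control mice carried Celf1lacZKI and a wild-type allele (Celf1lacZKI/+), so that both groups carried the knock-in allele, and the methods name no Cre in these Control mice. The mice were of mixed C57BL/6J and FVB background.

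The cKO arrays were brighter than the Control arrays, with 16261 and 16925 probes detected against 14542 and 14180. Brightness and genotype cannot be told apart. Celf1 itself was lower in both cKO lenses (log2 fold change -1.43 ± 0.19, SE, limma adjusted p = 0.0098), and whether its probes lie in the deleted exon is not given in the files. Xist, the RNA of the inactive X chromosome, was detected on both cKO arrays and on neither Control array. The Y-linked gene Ddx3y was detected on all 4 arrays, with a log2 signal of 6.81 in cKO A, 4.82 in cKO B, 8.99 in Control A and 8.82 in Control B. The labels give no sex, and genotype cannot be told apart from these sex-linked differences. All 8 lens fiber markers were tested, and 2 of them, Bfsp2 and Birc7, were called reduced. Of 5 lens epithelium markers 4 were tested and 1, Foxe3, was called reduced. In whole lenses, a lower share of a cell type and a lower RNA level per cell cannot be told apart.

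Of the 61 genes, 9 were called between the genotypes, that is, they passed a limma adjusted p of 0.05 over all genes, moved by more than 0.58 on the log2 scale and had an average log2 signal above 4.6. Elevated in cKO lenses were Slc1a4, Slc39a6, Slc24a2, Slc6a6 and Slc8a1, and reduced were Slc6a15, Slc46a3, Slc4a1 and Slc31a1. The 9 genes made up 14.8% of the members, where 11.6% of all genes tested were called and 14.0% of the 7900 genes that met the same detection rule on the Control arrays. Elevated members made up 8.20%, against 6.01% of all genes and 6.13% of the genes that met the Control rule, and reduced members 6.56%, against 5.64% and 7.84%. These shares lie near the backgrounds, and because the rule read the Control arrays of this very contrast, nothing is read from the counts about carriers as a class. Without cKO B 1 member was called and without Control B 4, and with no normalization between arrays, which leaves the brighter cKO arrays as they are, 34 were called, 31 elevated and 3 reduced.

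Most members changed little. The log2 fold change was under 0.58 in size for 45 of the 61, with 29 members above 0 and 32 below. Their median log2 fold change was -0.08, against 0.01 over all genes tested and -0.02 over the genes that met the Control rule. The values of the genotypes did not overlap in 46 members (75.4%), while this held for 62.3% of all genes and 66.2% of the genes that met the Control rule. With 2 lenses per genotype, no exact permutation test (two-sided) can go below p = 0.333, so that single genes rest on the spread that limma shares over all genes.

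**Figure D1:**
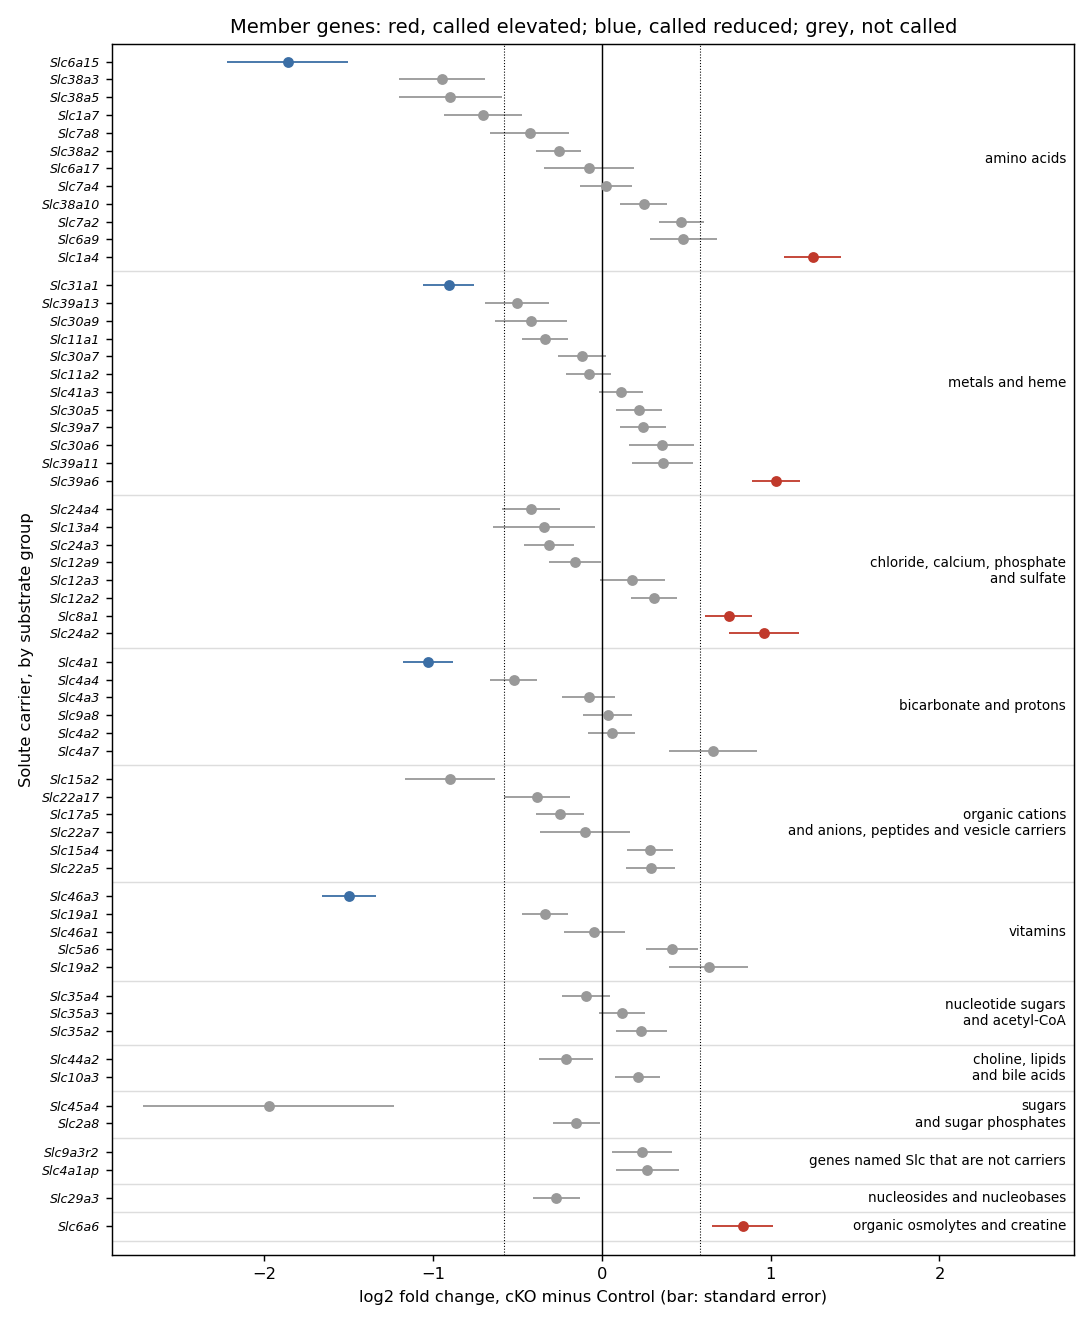
Log2 fold change of 60 of the 61 member genes (horizontal axis, cKO minus Control, bars are standard errors, n = 2 lenses in each group), sorted within substrate groups. Red points are the 5 genes called elevated, blue points the 4 called reduced and grey points the rest, and dotted lines mark 0.58 in either direction. Every group of 5 or more genes held points on both sides of 0, and Slc45a4 had the widest error.

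Each value rests on short probes, and the probe sequences below belong to called carriers whose measurement the results turn on, with a pair for Slc8a1 because its probes differed. Each probe has 50 bases, of which the first 30 are shown from 5′ to 3′ as in the files. The files place the probes of Slc46a3 on chromosome 5 at 148690657 to 148690706 (minus strand), of Slc1a4 on chromosome 11 at 20202480 to 20202529 (minus strand), of Slc6a15 on chromosome 10 at 102880722 to 102880771 (plus strand) and of Slc31a1 on chromosome 4 at 62052573 to 62052622 (plus strand). They place the first Slc8a1 probe on chromosome 17 at 81772478 to 81772527 (minus strand) and give no position for the second. They name neither the genome build nor the exon or UTR that a probe lies in.
Slc46a3: gacagtcggcagcaatgcacacgtccctat
Slc1a4: attatgtaggaactggagctggacagtgaa
Slc6a15: ggccatacttcctgtcccagtggtgttcat
Slc31a1: ggcacagtgtccatcatgccatttaatctt
Slc8a1, probe that did not meet the rule: cgactgtgtaacaaatcgttgtgttctctg
Slc8a1, probe that met the rule: ttgtgtgtattgtgcacggctttaggggga

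Amino acid carriers formed one of the 2 groups of 12 genes, and they moved both ways. Slc1a4, a sodium-dependent exchanger of alanine, serine and cysteine, was elevated, and Slc6a15, a sodium-coupled carrier of branched-chain amino acids and proline, was reduced. The median log2 fold change of the group was -0.17, with 5 genes above 0 and 7 below. Relative to all genes it was -0.18, and -0.37 without Control A.

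The log2 signal of Slc1a4 was 9.01 in cKO A and 9.07 in cKO B, against 7.60 in Control A and 7.98 in Control B. Both cKO lenses lay above both Control lenses, and the cKO values differed from each other less than the Control values did. Slc1a4 was 2.38-fold higher in cKO lenses, which is 1.25 ± 0.17 on the log2 scale (SE, limma adjusted p = 0.010). Without cKO B the log2 fold change was 1.22 and the adjusted p 0.082, and the call held without each of the other lenses.

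Slc6a15 had a log2 signal of 6.11 in cKO A and 4.87 in cKO B, against 7.36 in Control A and 7.34 in Control B. The Control lenses were nearly equal, whereas cKO B lay well below cKO A and near background (detection p-value of 0.00748). Its log2 fold change was -1.86 ± 0.36 (adjusted p = 0.024), which is a 3.64-fold lower level. Leaving out a lens ended this call in 3 cases. The adjusted p was 0.0501 when cKO B was removed (log2 fold change -1.24), 0.066 when Control A and 0.091 when Control B was removed, and the change without cKO A was -2.48.

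Slc38a3 and Slc38a5, which carry glutamine together with sodium in exchange for protons, did not pass the threshold. Their log2 fold changes were -0.95 ± 0.26 (adjusted p = 0.055) for Slc38a3 and -0.90 ± 0.31 (adjusted p = 0.097) for Slc38a5, and for each gene both cKO lenses lay below both Control lenses. These sizes rested on single lenses: Slc38a3 moved to -1.27 when cKO A was removed, which passed the threshold (adjusted p = 0.040), and to -0.62 (adjusted p = 0.306) when cKO B was removed. Slc38a5 had -0.47 (adjusted p = 0.239) when Control A and -1.33 (adjusted p = 0.057) when Control B was removed. With the median set equal over probes that all 4 lenses detected, both passed (adjusted p = 0.032 for Slc38a3 and 0.041 for Slc38a5). This scaling moved genes down in general, and the median over all genes tested then stood at -0.19. Relative to that median both genes moved nearer to 0, Slc38a3 from -0.96 to -0.73 and Slc38a5 from -0.91 to -0.79. Slc1a7, a glutamate carrier known from the retina, had -0.71 ± 0.23 (adjusted p = 0.087), and moved to -1.05 (adjusted p = 0.027) when Control A and to -0.36 (adjusted p = 0.195) when Control B was removed. None of the 8 retina markers listed passed the detection filter. At the other end of the group, Slc7a2, a carrier of arginine and lysine, had 0.47 ± 0.13 (adjusted p = 0.062).

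Slc38a2, a neutral amino acid carrier that cells induce under amino acid shortage and hypertonic stress, is held by 3 probes that did not move together. They gave log2 fold changes from -0.59 to 0.01, and the gene as a whole -0.26 ± 0.13 (adjusted p = 0.237). The other amino acid members were Slc38a10, Slc6a9, Slc6a17, Slc7a4 and Slc7a8, and 0 of these 5 were called.

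**Figure D2:**
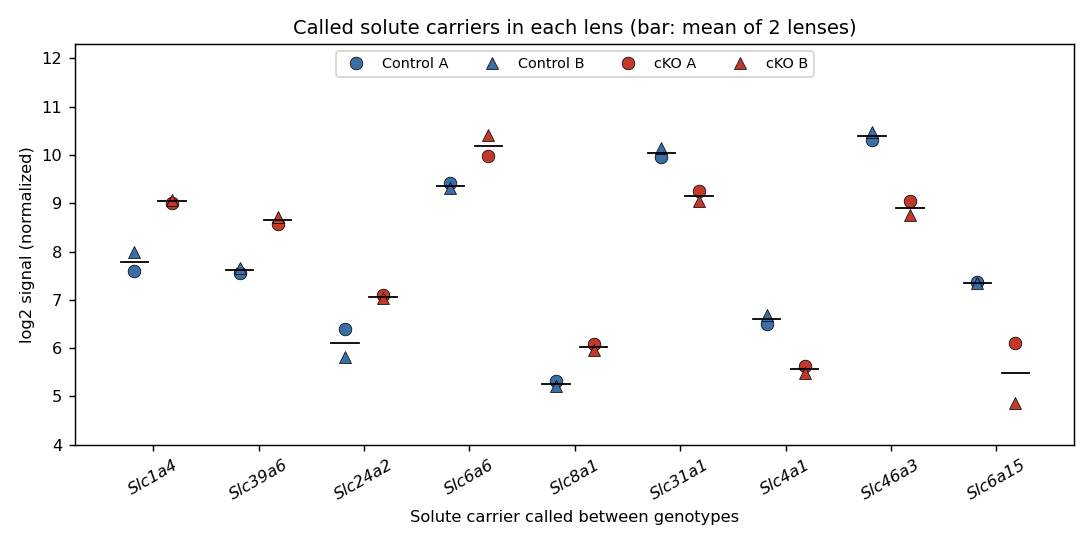
Log2 signal (vertical axis, normalized) of the 9 called carriers in each lens, with Control in blue, cKO in red, replicate A as circles and replicate B as triangles, and a bar at the mean of the 2 lenses. The genotypes do not overlap in any of the 9 genes, and the Slc6a15 values of the cKO lenses (6.11 and 4.87) lie farthest apart within a group.

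The organic osmolyte carrier Slc6a6, which takes up taurine, was elevated. Taurine is an abundant free amino acid of the lens, and Slc6a6 is known to be induced by hypertonicity. Its log2 signal was 9.98 in cKO A and 10.41 in cKO B, against 9.42 in Control A and 9.31 in Control B. The lower cKO lens still lay above both Control lenses. The log2 fold change was 0.83 ± 0.18 (SE, adjusted p = 0.031), or 1.78-fold. It ranged from 0.62 to 1.05 when 1 lens was left out, and the call held only when cKO A was the lens removed. The adjusted p was 0.222 with cKO B removed, 0.059 with Control A removed and 0.104 with Control B removed.

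Metal carriers, 12 genes, were balanced around 0, and the median was 0.02 on the log2 scale, 6 genes lying on each side. Slc39a6, a zinc importer of the plasma membrane known from epithelial cells that change shape and migrate, was elevated. Slc31a1, the high-affinity copper importer, was reduced.

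The values of Slc39a6 were 8.58 in cKO A and 8.72 in cKO B, against 7.56 in Control A and 7.67 in Control B, on the log2 scale. Replicates were close together and the genotypes well apart. Slc39a6 was 2.04-fold higher in cKO lenses, or 1.03 ± 0.14 on the log2 scale (adjusted p = 0.010), and this call was lost without cKO B (0.96, adjusted p = 0.099).

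Slc31a1 had a log2 signal of 9.25 and 9.04 in the cKO lenses and of 9.96 and 10.14 in the Control lenses. Again the genotypes did not overlap. The log2 fold change was -0.91 ± 0.15 (adjusted p = 0.017), a 1.88-fold lower level. Removing cKO B gave -0.80 (adjusted p = 0.143) and removing Control B -0.82 (adjusted p = 0.065), and neither passed. With no normalization between arrays, which raises all genes in the cKO lenses, it was -0.05, still below the median of all genes, which then stood at 0.57.

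The other zinc carriers among the members were the importers Slc39a7, Slc39a11 and Slc39a13 and the exporters Slc30a5, Slc30a6, Slc30a7 and Slc30a9, which mostly serve the secretory pathway, and 0 of these 7 were called. Slc39a13, whose loss affects connective tissue, had -0.50 ± 0.19 (adjusted p = 0.127), with its 2 probes at -0.51 and -0.50, and with cKO A or cKO B removed it stood at -0.76 (adjusted p = 0.097) or -0.25 (adjusted p = 0.609). Slc11a2, the carrier of ferrous iron, had 2 probes that met the rule and pointed opposite ways, at -0.52 and 0.37, so that its mean of -0.08 describes neither. Slc11a1, a metal carrier known from the phagosomes of macrophages, had -0.34 ± 0.14 (adjusted p = 0.144). Of 8 macrophage markers 4 were tested, and of these Cd68 and C1qb were called elevated and were above background on neither Control array. The mean log2 signal of the 4 was 4.97 and 4.92 in the cKO lenses and 4.61 and 4.67 in the Control lenses, and Csf1r (-0.11) and Aif1 (-0.06) lay on the same side of 0 as Slc11a1. Their part in the Slc11a1 value was not tested.

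The group of chloride, calcium, phosphate and sulfate carriers, 9 genes, had a median log2 fold change of 0.18, with 5 genes above 0 and 4 below. Relative to all genes the median was 0.17, and -0.03 without Control B. Its 2 called genes, both elevated, were sodium/calcium exchangers. Such exchangers use the sodium gradient to push calcium out of cells, and those of family Slc24 need potassium too.

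Slc24a2 was read at 7.11 in cKO A, 7.03 in cKO B, 6.40 in Control A and 5.82 in Control B. The Control lenses differed by more than the cKO lenses did. The log2 fold change was 0.96 ± 0.21 (adjusted p = 0.031), or 1.95-fold. Leaving out Control B gave 0.67 (adjusted p = 0.075), and the call was also lost when either cKO lens was removed (adjusted p = 0.116 for cKO A and 0.157 for cKO B). With undetected probes of the gene averaged in as well, the change was 0.09. Both other members of this family, Slc24a3 and Slc24a4, were not called, with log2 fold changes of -0.31 ± 0.15 (adjusted p = 0.195) and -0.42 ± 0.17 (adjusted p = 0.146). Slc24a4 ran from -0.62 (adjusted p = 0.055) when Control A was removed to -0.22 (adjusted p = 0.383) when Control B was.

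For Slc8a1, the sodium/calcium exchanger best known from heart muscle, the call rested on a probe outside the rule. The probe that met the rule had a log2 signal of 6.30 and 6.25 in the cKO lenses and of 6.41 and 6.08 in the Control lenses, and its log2 fold change on its own was 0.02 ± 0.17 (adjusted p = 0.942). The other probe had a log2 signal of 5.85 and 5.67 in the cKO lenses, and on the Control arrays it was not above background (detection p-values of 0.825 and 0.393). Its level was higher in the cKO lenses by at least 2.03-fold (adjusted p = 0.0037). The mean of the probes gave the gene its log2 fold change of 0.75 ± 0.14 (adjusted p = 0.021). With 1 lens left out the change ran from -0.00051 to 0.81, and the call was lost without cKO A, cKO B or Control B. Taking the brighter probe, or only the probe that met the rule, left 0.02, and the gene was then not called.

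The cotransporter Slc12a2, which brings sodium, potassium and chloride into lens fibers and so raises their volume, was not called, with 0.31 ± 0.14 (adjusted p = 0.178), and its 2 probes gave 0.25 and 0.36. Both cKO lenses lay above both Control lenses.

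Among the 6 bicarbonate and proton carriers, Slc4a1 was reduced and 5 were not called. Slc4a1 encodes band 3, the anion exchanger of the red blood cell. Its log2 signal was 5.64 in cKO A and 5.49 in cKO B, against 6.50 in Control A and 6.69 in Control B. The genotypes were separate, and the log2 fold change was -1.03 ± 0.15 (adjusted p = 0.011), a 2.05-fold lower level. Without cKO B it was -0.96 (adjusted p = 0.107). With no normalization between arrays it was -0.37 (adjusted p = 0.141).

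Of 9 red blood cell markers, 2 passed the detection filter, and Alas2 and Epb42 were not among them. The hemoglobin gene Hba-a1 had a log2 signal of 8.88 in cKO A, 7.62 in cKO B, 8.52 in Control A and 8.14 in Control B, and its log2 fold change was -0.08 (adjusted p = 0.902). For Hbb-b1 the change was 0.05 (adjusted p = 0.931). For both hemoglobin genes the Control values lay between those of cKO A and cKO B. The part of red blood cells in the Slc4a1 value was not tested.

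Slc4a4, the sodium bicarbonate cotransporter, whose loss in people leads to eye disease with cataract, had -0.52 ± 0.14 (adjusted p = 0.055). Its probe that met the rule gave -0.73 ± 0.17 (adjusted p = 0.034) on its own and would be called, and a dimmer probe with -0.31 brought the mean nearer to 0. Slc4a7, another sodium bicarbonate cotransporter, had 0.66 ± 0.26 (adjusted p = 0.140), with Control B well below the other 3 lenses, and moved to 1.08 (adjusted p = 0.026) when Control A and to 0.23 (adjusted p = 0.353) when Control B was removed. The anion exchanger Slc4a3 had -0.08 ± 0.16 (adjusted p = 0.770).

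Slc46a3 was reduced under every processing choice tried. It is a carrier of the lysosomal membrane, placed here with the vitamin carriers because it shares a family with the folate carrier Slc46a1, and its own cargo is less settled. The log2 signal was 9.04 in cKO A and 8.75 in cKO B, against 10.31 in Control A and 10.48 in Control B. The genotypes lay more than 1 log2 unit apart, with replicates close together. Slc46a3 was 2.82-fold lower in cKO lenses, or -1.50 ± 0.16 on the log2 scale (SE, adjusted p = 0.0052). It was called under all 13 processing choices tried and whichever of the 4 lenses was left out, with values from -1.64 to -1.35 in the latter case.

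The other 4 vitamin carriers were not called. Slc19a2, which takes up thiamine, had 0.63 ± 0.23 (adjusted p = 0.119) and Slc5a6, which takes up biotin and pantothenate, 0.42 ± 0.16 (adjusted p = 0.122). Removing cKO A took Slc19a2 to 0.96 (adjusted p = 0.061), and removing cKO B took it to 0.30 (adjusted p = 0.561). Slc5a6 went from 0.56 when Control A was removed to 0.27 when Control B was. The folate carriers Slc19a1 and Slc46a1 made up the rest. The median of the 5 was -0.05, and relative to all genes it ran from -0.29 without Control A to 0.16 without Control B.

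**Figure D3:**
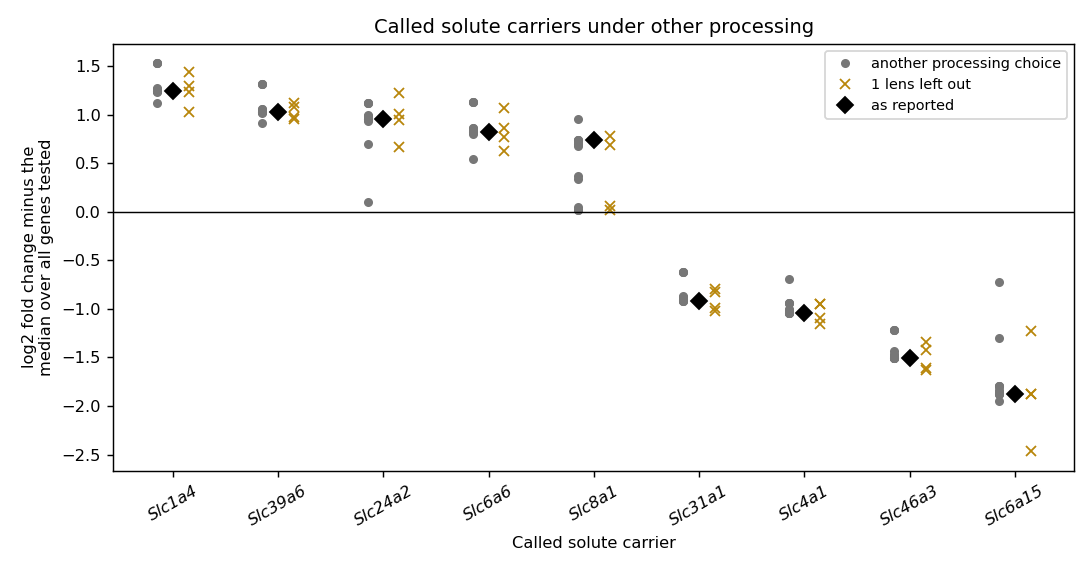
Log2 fold change of each called carrier after subtraction of the median over all genes tested (vertical axis), as reported (black diamond), under the 13 other processing choices (grey circles) and with 1 lens left out (crosses). Slc46a3, Slc39a6 and Slc1a4 stayed far from 0, whereas Slc8a1 fell to about 0 under several choices and Slc24a2 when no detection filter was applied.

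The 6 carriers of organic ions and peptides held 0 called genes and had a median log2 fold change of -0.17. Relative to all genes it was -0.18, and -0.020 without Control A and -0.027 without Control B. Slc15a2, a proton-coupled importer of small peptides, had the lowest value of these, -0.90 ± 0.27 (adjusted p = 0.069). All 3 of its probes met the rule and pointed down, from -1.12 to -0.65, and 1 of them passed the threshold on its own (-0.92 ± 0.22, adjusted p = 0.036). cKO B lay below cKO A on each of the 3 probes. The gene would be called when cKO A was removed (-1.32, adjusted p = 0.020) and had -0.47 (adjusted p = 0.332) when cKO B was removed. The probe that passed on its own is the brightest of the 3. With the brightest probe of each gene the adjusted p was 0.032, so both values rest on 1 probe. The carnitine importer Slc22a5 had rule probes on both sides of 0, at -0.30 and 0.56.

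Slc45a4, of a family of sugar carriers, had the lowest log2 fold change of all members and was not called. Its log2 signal was 6.05 in cKO A, 6.35 in cKO B, 6.83 in Control A and 9.53 in Control B. Control B stood far above the other 3 lenses, and it did so on each of the 3 probes of the gene. The log2 fold change was -1.97 ± 0.74 (adjusted p = 0.123), and without Control A, which leaves Control B alone, it was -3.33 (adjusted p = 0.012), and with Control B removed it was -0.62 (adjusted p = 0.115). The other sugar carrier, Slc2a8, was not called.

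The remaining members were not called either. They were the nucleotide sugar carriers Slc35a2, Slc35a3 and Slc35a4, the nucleoside carrier Slc29a3, Slc10a3 of the bile acid carrier family, the choline carrier Slc44a2, and the binding proteins Slc4a1ap and Slc9a3r2. Slc35a2 and Slc10a3, which RefSeq places on the X chromosome together with the glutamine carrier Slc38a5, had 0.23 ± 0.15 (adjusted p = 0.331) and 0.21 ± 0.13 (adjusted p = 0.324). Slc35a2 stood at 0.11 when Control A and at 0.36 when Control B was removed.

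A list of 22 carriers with a known part in the lens or in cataract was also followed. Of these, 8 were members, and Slc6a6, Slc31a1 and, with the limit given above, Slc8a1 were called. The other 14 did not meet the Control rule. Of them 6 were tested and not called, among them the creatine carrier Slc6a8, the phosphate carrier Slc20a1, the zinc importer Slc39a1, the choline carrier Slc44a1 and the nucleoside carrier Slc29a1. The other 8 did not pass the detection filter and cannot be judged here, among them Slc16a12, a creatine carrier linked to cataract, and the ascorbate carriers Slc23a1 and Slc23a2. For myo-inositol the carrier Slc5a3 fell in the same class, so that of the osmolyte carriers listed only Slc6a6 and Slc6a8 gave a value.

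The detection rule shapes which genes are seen. Just inside it were Slc1a7 and Slc35a3, each with a detection p-value of 0.00962 on Control A, and Slc38a10, with 0.00855 on Control B. Just outside were Slc12a1, Slc2a13 and Slc5a10, each with 0.01068 on Control A. Each of the 61 members also had a rule probe under 0.01 on both cKO arrays.

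The rule left 203 carriers outside, 62 of these had a value in the fit, and the calls among them were 6 up and 0 down. Of the 3616 genes tested that did not meet the Control rule, 5.75% were called elevated and 0.830% reduced. Since the rule read the Control arrays, this was not compared with the members. These 6 were Slc15a3, Slc22a18, Slc35a1, Slc39a4, Slc39a9 and Slc7a3, named after their values were seen. In 4 of them, Slc15a3, Slc39a4, Slc39a9 and Slc7a3, a probe was under 0.01 on both cKO arrays and no probe was under 0.05 on either Control array. Among the genes left out by name 31 were tested, with the mitochondrial carriers Slc25a1, Slc25a24 and Slc25a33 called, 2 elevated and 1 reduced.

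Agreement between probes of a gene was partial. In 12 members more than 1 probe met the rule, and in 9 of these all such probes lay on the same side of 0. The exceptions were Slc11a2, Slc22a5 and Slc38a2. Counted by single rule probes, 10 members had a called probe, 4 elevated and 6 reduced, which adds Slc4a4 and Slc15a2 and drops Slc8a1.

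Genes for proteins that act on carriers were listed too, with earlier results of these data known. Of 30 listed partners 21 had a value in the fit, and 8 of these were called, 5 up and 3 down. Of all genes tested 11.6% were called, and 14.0% of the genes that met the Control rule. Because the list was made with those results known, nothing is read from these counts about partners as a class. The 2 scaffolds tested, Slc9a3r2 and Pdzd11, were not called. With cKO B removed 2 were called, and with cKO A or Control B removed 5. The arrestin family shows both: Txnip, which drives the removal of glucose carriers from the membrane, rose by 1.85 ± 0.14 on the log2 scale (adjusted p = 0.0021) and Arrdc3, which acts on membrane proteins with ubiquitin ligases, by 1.76 ± 0.17 (adjusted p = 0.0041), while Arrdc4 had -0.91 ± 0.16 (adjusted p = 0.019).

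The log2 signal of Txnip was 8.25 and 8.37 in the cKO lenses, against 6.41 and 6.52 in the Control lenses. For Arrdc3 it was 7.49 and 7.44 against 5.52 and 5.89. In both genes the distance between genotypes was several times that between replicates.

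Kinases and ligases that act on ion and amino acid carriers were split too. Sgk1, a kinase induced by glucocorticoids and cell shrinkage, was read at 7.11 and 7.32 in the cKO lenses and at 5.72 and 6.10 in the Control lenses, with a log2 fold change of 1.30 ± 0.18 (adjusted p = 0.0099). Its relative Sgk3 went the other way, with -1.05 ± 0.17 (adjusted p = 0.014). Nedd4l, a ubiquitin ligase that Sgk1 restrains, had -1.19 ± 0.21 (adjusted p = 0.019). The kinases Wnk1, Wnk2, Stk39 and Oxsr1, which set the activity of the chloride cotransporters, were not called.

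Among subunits and chaperones, Arl6ip1 and Arl6ip5, membrane proteins of the endoplasmic reticulum of which Arl6ip5 binds a glutamate carrier, were elevated, with log2 fold changes of 0.89 ± 0.13 (adjusted p = 0.013) and 0.84 ± 0.19 (adjusted p = 0.033). Basigin (Bsg), embigin (Emb) and neuroplastin (Nptn), the subunits that bring lactate carriers to the membrane, were not called, with values of 0.54 ± 0.19 (adjusted p = 0.111), 0.45 ± 0.22 (adjusted p = 0.216) and 0.53 ± 0.15 (adjusted p = 0.059). For each of them both cKO lenses lay above both Control lenses, but the genotypes also did not overlap in 62.3% of all genes tested. Bsg was near background in the Control lenses, with a log2 signal of 4.42 and 4.68, and was detected on only 1 Control array.

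**Figure D4:**
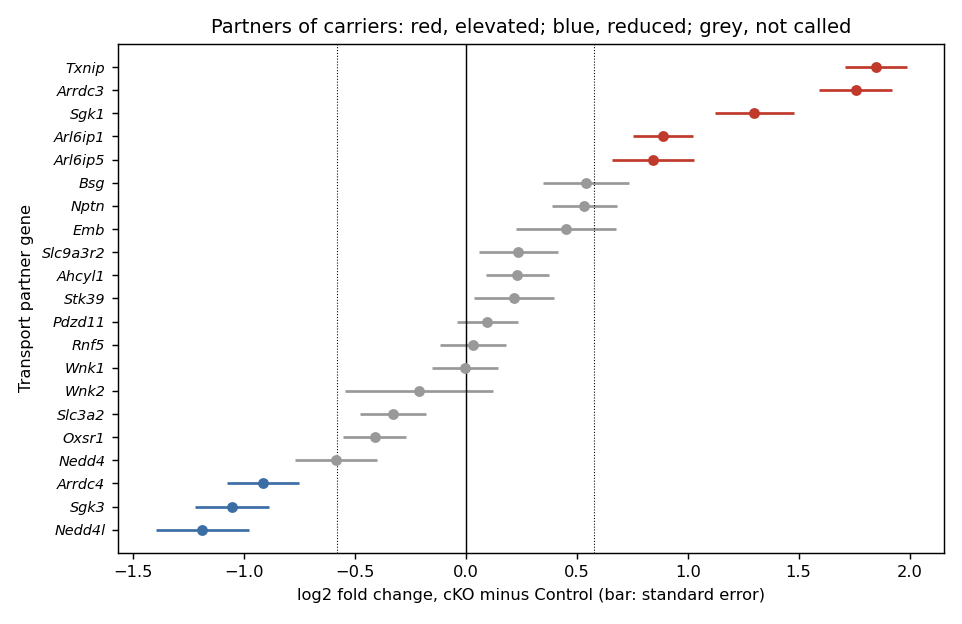
Log2 fold change (horizontal axis, cKO minus Control, bars are standard errors, n = 2 lenses in each group) of the 21 tested partner genes of carriers. Red marks the 5 called elevated, led by Txnip at 1.85, blue the 3 called reduced, with Nedd4l at -1.19, and grey the genes not called.

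Signs of other tissues were limited and moved with the genotypes in part. Of 8 retina and 5 cornea markers 0 were tested, although 3 cornea markers were above background on cKO B alone. Of 7 vessel markers 6 were tested and they lay on both sides of 0. Emcn was called elevated (1.12 ± 0.19, adjusted p = 0.018), while Cdh5 had 0.58 (adjusted p = 0.082), Cldn5 0.53 (adjusted p = 0.053), Kdr -0.59 (adjusted p = 0.052), Tek -0.26 and Pecam1 -0.06. The mean log2 signal of the 6 was 5.98 and 5.96 in the cKO lenses and 5.80 and 5.70 in the Control lenses. Of 6 pigment cell markers and of 8 muscle markers 1 each was tested and not called. The part of these cells in the carrier values was not tested.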

How the data were processed

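RNA of 4 mouse lenses (postnatal day 6) was hybridised to Illumina MouseWG-6 v2.0 arrays. The authors deposited unnormalized and rank-invariant normalized intensity, each with a detection p-value, a bead standard error and a bead number. The deposited detection p-values were read from the normalized table, since 18 lines of the other had shifted cells, and these 18 were left out, which left 45263 probes. Gene names were updated through a RefSeq table of assembly GRCm38.p6.

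Intensity was background corrected by the neqc function (limma 3.58.1 in R 4.3.3) at an offset of 16, quantile normalized and log2 transformed. A probe was kept if 2 or more samples had a detection p-value under 0.05, and probes of a gene were averaged on the log2 scale, as the authors did, whose methods name no detection p. Groups were compared with lmFit and eBayes, and p was adjusted (Benjamini-Hochberg) across the 11516 genes. Calls needed an adjusted p below 0.05, a log2 fold change above 0.58 in size and an average log2 signal above 4.6, the figures of the study. The signal limit was set here on values with the offset of 16, so it need not match the limit of the study. Dropping it changed no call (1341 genes either way). The count model edgeR that the authors ran was not applied, because the values are intensities. "At least" marks a probe not above background on the Control arrays, where the lowest detected signal of each array stood in for a lower value.

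The replicate letters did not pair the lenses (correlation of A minus B differences between groups -0.01 over 11516 genes). The fit was tested on simulated data. The members, substrate groups and lists of markers and partners were chosen with earlier results of these data known. Named genes are the called members of each group of largest change, the listed lens carriers, the members and carriers next to the detection threshold and the 5 members of highest Control signal (Slc46a3, Slc31a1, Slc24a4, Slc6a6, Slc35a2). The others were named after their values were seen. Nothing in the labels says that the lenses came from separate litters, so p-values measure the spread between these lenses. The number of arrays limits the precision. Values of some listed genes, 1 member among them, are not reported here.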

Additional observations from a re-analysis of the deposited data

How the results depend on the processing

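With 9 members called, of which 5 were elevated and 4 reduced, the count depended most on the scaling between arrays and on single lenses. With no normalization between arrays, and likewise with the same median over all probes, 34 members were called, 31 elevated and 3 reduced. The median of all genes then stood at 0.57 and 0.53, and 97.7% and 97.3% of all calls were elevated, against 51.6%. With the median set equal over probes that all 4 lenses detected, the median of all genes was -0.19, 24.8% of all calls were elevated, and 14 members were called, 4 elevated and 10 reduced. With no detection filter 2 were called, 1 elevated (Slc39a6) and 1 reduced (Slc46a3). With the brightest probe of each gene 11 were called and 7 were reduced. With the replicate block, a fit with the letters A and B that do not pair the lenses, 15 members were called, 9 of them reduced, and 1685 of all genes against 1341. Across all genes, 5788 were called with no normalization, 5417 with the same median over all probes, 2690 with the same median over detected probes, 789 with an offset of 50 and 207 with no filter. When 1 lens was left out, 1 to 11 members were called, 0 to 5 elevated and 1 to 6 reduced, and 126 to 1304 genes in all, with the lowest counts without cKO B and, next, without Control B (4 members). Of the 9, the deposited normalized table, cyclic loess, the intensity trend, the replicate block and no minimum signal kept all. An offset of 50, the brightest probe, rule probes only, detection in all 4 samples and the median of detected probes lost Slc8a1 alone. A detection limit of 0.05 or 0.001 in the rule gave 11 of 86 and 8 of 47 genes, and Slco symbols changed nothing.

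Partner genes called numbered 8 (5 elevated, 3 reduced), 13 with no normalization or the same median over all probes (13 elevated, 0 reduced), 3 with no filter (3 elevated, 0 reduced), and 5 reduced with the median of detected probes. They numbered 2 to 8 with 1 lens left out, 2 to 4 elevated and 0 to 4 reduced. Celf1 was -1.16 with no filter (adjusted p = 0.072) and -1.18 without cKO B (adjusted p = 0.062), and ranged from -1.68 to -1.18 with 1 lens left out. Group medians relative to all genes moved as follows. The amino acid group, -0.18, was -0.028 with no normalization and with either median scaling, and from -0.37 to -0.15 with 1 lens left out. The bicarbonate group, -0.03, was -0.16 with detection in all 4 samples, -0.29 with the brightest probe, -0.27 with rule probes only and from -0.14 to 0.031 with 1 lens left out. The organic ion and peptide group, -0.18, ranged from -0.19 to -0.020 with 1 lens left out. The chloride and calcium group, 0.17, was 0.44 and the metal group, 0.01, was 0.12 with no normalization and with either median scaling. The chloride and calcium group was -0.010 with no filter, 0.02 with the brightest probe or rule probes only, and from -0.027 (without Control B) to 0.35 (without Control A) with 1 lens left out, and the vitamin group, -0.05, from -0.29 to 0.16.

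Of the 61 members, 22 changed sides of 0 with no normalization and with the same median over all probes, and relative to all genes 7 did. With no normalization and then with the same median over all probes, the changes were 0.47 and 0.43 for Slc11a1, 0.58 and 0.54 for Slc11a2, 0.52 and 0.48 for Slc24a3, 0.43 and 0.39 for Slc24a4, 0.44 and 0.40 for Slc38a2, 0.32 and 0.29 for Slc39a13, and 0.44 and 0.40 for Slc4a3. With the median of detected probes, Slc35a3 had -0.32 and Slc38a10 -0.12. With 1 lens left out, Slc4a3 ranged from -0.23 to 0.079 (without Control A) and Slc8a1 from -0.00051 (without cKO A) to 0.81. Without cKO A, and likewise without cKO B, the Slc8a1 probe outside the rule no longer passed the filter, as it was above background only on the cKO arrays. The causes of the other shifts were not tested.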
